A study of Homo sapiens with 18 samples.

Results

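The transcripts described here encode the proteasome, the protein-degrading machine of the cell. They comprise 34 genes, taken by symbol as the alpha subunits PSMA1 to PSMA7, the beta subunits PSMB1 to PSMB7, the ATPases PSMC1 to PSMC6 and the non-ATPase genes PSMD1 to PSMD14. Each symbol matched 1 of the 60504 genes in the expression table, and all 34 were among the 14936 genes with at least 1 TPM (a transcript's length-normalised share of its library) in at least 3 of the 18 libraries. The genes were grouped as the 20S core (14 genes, PSMA and PSMB) and the 19S cap (20 genes, PSMC and PSMD), and these names are used throughout.

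The study measured gene expression in A375 cells given IMD-0354. A375 is a widely used human melanoma cell line with mutant BRAF, and IMD-0354 is a compound known as a blocker of IKKβ, a kinase that activates NF-κB. There were 6 groups of 3 libraries: untreated cells at 24 h, cells at 0.32, 0.63 and 1.25 µM IMD-0354 for 24 h, cells at 0.63 µM for 48 h, and untreated cells at 48 h. No vehicle is named for untreated cells, and all groups are the same line with no engineered allele. Whether the 3 libraries per group were separate cultures is not stated, so the p-values reflect the spread among libraries alone, and that spread may be technical.

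The proteasome degrades proteins that carry chains of ubiquitin. Its core is a barrel of alpha and beta rings, with the cutting sites inside the beta rings, and its cap recognises ubiquitin, removes the chain and feeds the unfolded protein into the barrel through a ring of ATPases. In human cells the transcription factor NFE2L1, also called NRF1, is known to raise the genes of both parts together when proteasome activity is blocked, with small MAF proteins as its DNA-binding partners at antioxidant response elements. Melanoma cells, like other cells, depend on this machine to clear damaged proteins and to turn over regulators such as the inhibitor of NF-κB.

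Of 10 melanocyte lineage markers, SOX10 (8.29 to 34.7 TPM over all libraries), MITF (2.87 to 16.8 TPM) and MIA (29.4 to 192 TPM) were present, whereas TYR and TYRP1 were listed at 0 throughout and PMEL, MLANA, DCT, S100B and S100A1 reached at most 2.43 TPM. MITF had a mean of 8.44 TPM at 1.25 µM, against 15.6 TPM in untreated cells at 24 h, and the groups overlapped. At 48 h it averaged 4.07 TPM at 0.63 µM, against 15.9 TPM in untreated cells. In each of these comparisons 1 of 5 tested markers passed the test below as lower, against 6.36% and 5.68% of all genes. What this means for the members was not tested. Among fibroblast, leukocyte, endothelial and epithelial markers no list summed to more than 1.60 TPM. Of 4 keratinocyte markers, KRT5, KRT14 and KRT1 reached at most 1.14 TPM, but KRT10 was present, and the summed level of the list was 72.7 to 102.6 TPM at 1.25 µM, against 39.2 to 45.1 TPM in untreated cells at 24 h; its part in the results was not tested. The number of genes above 0 was 14647 to 17029 per library. One library stood apart from its group, replicate 2 of the untreated cells at 24 h, with a mean correlation of 0.907 to the other libraries of its group, against 0.920 and 0.929 for the others. The 7 genes with the highest mean levels took 17.8% of its total, against 23.4% and 22.5% in replicates 1 and 3 and 16.9% to 20.6% in the libraries at 0.63 and 1.25 µM for 24 h, and it held the highest summed level of the 34 genes. Where leaving it out ended a call at 24 h, the value without it is given too. Among other 24 h values it is given for some only, and a value without a second figure may also depend on this library.

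The start regions of the genes are shown because several members moved in the same direction, and because the letters TGACNNNGC, the core of the antioxidant response element, can be looked for in them. RefSeq promoter windows of assembly GRCh38.p14, 250 bases before to 50 after an annotated start, were found for 29 of the 34 genes, and PSMA7, PSMB1, PSMB6, PSMB7 and PSMD4 had none. The first 5 windows below belong to members that passed the test in a comparison with untreated cells and hold the letters on either strand. The sixth belongs to PSMC1, the member with the largest fall, whose window holds no such match. Capitals mark the match, and each sequence runs 5′ to 3′ on the strand of its gene.
PSMA4 (chr15:78540536-78540835, plus strand): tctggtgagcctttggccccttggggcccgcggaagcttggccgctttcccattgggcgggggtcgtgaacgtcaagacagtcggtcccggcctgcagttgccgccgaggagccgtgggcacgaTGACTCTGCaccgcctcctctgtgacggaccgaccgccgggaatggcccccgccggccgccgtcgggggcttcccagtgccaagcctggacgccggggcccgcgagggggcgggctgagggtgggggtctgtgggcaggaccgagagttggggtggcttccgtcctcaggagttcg
PSMB3 (chr17:38752491-38752790, plus strand): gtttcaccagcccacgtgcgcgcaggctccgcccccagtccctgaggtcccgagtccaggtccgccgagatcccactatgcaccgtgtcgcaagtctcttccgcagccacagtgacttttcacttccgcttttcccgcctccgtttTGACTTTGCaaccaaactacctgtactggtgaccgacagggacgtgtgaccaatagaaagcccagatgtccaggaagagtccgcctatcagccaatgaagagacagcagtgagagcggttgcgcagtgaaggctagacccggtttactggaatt
PSMD1 (chr2:231056617-231056916, plus strand): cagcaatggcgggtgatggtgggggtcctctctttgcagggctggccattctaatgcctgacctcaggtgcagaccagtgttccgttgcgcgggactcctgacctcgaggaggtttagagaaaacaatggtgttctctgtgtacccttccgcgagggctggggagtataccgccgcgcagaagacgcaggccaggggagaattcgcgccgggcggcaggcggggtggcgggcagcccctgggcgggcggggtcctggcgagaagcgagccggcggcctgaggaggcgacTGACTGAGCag
PSMD3 (chr17:39980557-39980856, plus strand): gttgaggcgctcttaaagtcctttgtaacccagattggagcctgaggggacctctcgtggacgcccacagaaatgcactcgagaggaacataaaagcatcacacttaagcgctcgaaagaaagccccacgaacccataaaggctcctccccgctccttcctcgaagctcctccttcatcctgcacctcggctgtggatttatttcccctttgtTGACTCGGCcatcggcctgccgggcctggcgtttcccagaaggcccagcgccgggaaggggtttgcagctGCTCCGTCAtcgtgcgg
PSMD12 (chr17:67366528-67366827, minus strand): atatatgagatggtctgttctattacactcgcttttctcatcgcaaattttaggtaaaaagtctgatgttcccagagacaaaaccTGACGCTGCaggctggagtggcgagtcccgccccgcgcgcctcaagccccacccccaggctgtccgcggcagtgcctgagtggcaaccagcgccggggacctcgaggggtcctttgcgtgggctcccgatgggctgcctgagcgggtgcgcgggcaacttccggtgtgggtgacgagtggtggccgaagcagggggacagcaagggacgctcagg
PSMC1 (chr14:90256303-90256602, plus strand): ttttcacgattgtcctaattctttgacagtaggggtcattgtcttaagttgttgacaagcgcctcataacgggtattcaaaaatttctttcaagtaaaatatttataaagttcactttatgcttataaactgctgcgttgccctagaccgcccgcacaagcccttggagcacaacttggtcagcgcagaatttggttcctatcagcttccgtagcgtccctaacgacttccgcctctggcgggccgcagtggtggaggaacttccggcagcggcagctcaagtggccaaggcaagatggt

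The match began 126 bases before the start in PSMA4, 104 in PSMB3 and 165 in PSMD12, and 39 bases after the start in PSMD1. PSMD3 held one 37 bases before the start and another, on the opposite strand, 33 bases after it. PSMA4 has 3 RefSeq windows, and the match lies in 1 of them, not in those at the more upstream starts. In all, the letters occurred in 9 of the 29 members with a window (31.0%), against 16.1% of 27305 genes in the same table. They were present in 5 of 12 members that passed the test in any comparison with untreated cells and in 4 of 17 that did not, and in 2 of 10 core and 7 of 19 cap genes. The CCAAT box was present in 16 of 29 members (55.2%), against 39.7% of all genes, and a pair of heat shock element letters, GAANNTTC, in 0 of 29, against 8.21% of all genes. Both strands were searched, and 1 base could count towards more than 1 motif. These are descriptions of letters in a window and do not identify a bound site.

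Together the 34 transcripts took a smaller share of the transcriptome in treated cells. At 24 h their summed level was 8763 ± 933 TPM in untreated cells, 7769.7 ± 283 TPM at 0.32 µM, 7269.7 ± 488 TPM at 0.63 µM and 6576 ± 634 TPM at 1.25 µM (SD, n = 3 each). The ratios to untreated cells were 0.887, 0.830 and 0.750, with 0.888, 0.857 and 0.784 in the core and 0.885, 0.802 and 0.716 in the cap. Without replicate 2 of the untreated cells they were 0.944, 0.883 and 0.799, with 0.923, 0.890 and 0.815 in the core and 0.967, 0.876 and 0.782 in the cap. At 48 h the sum was 4894 ± 520.4 TPM at 0.63 µM, against 6711 ± 518 TPM in untreated cells, a ratio of 0.729, with 0.708 in the core and 0.753 in the cap. The libraries ranged from 7478 to 8044 TPM at 0.32 µM, 6711 to 7611 TPM at 0.63 µM and 5844 to 6946 TPM at 1.25 µM, none overlapping the 8115 to 9832 TPM of untreated cells. Nor did they overlap at 48 h (4293 to 5214 TPM, against 6117 to 7070.4 TPM). Because TPM is a share of each library, fewer transcripts of these genes and more of others cannot be told apart, and in bulk samples neither can fewer cells and less RNA per cell.

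**Figure D1:**
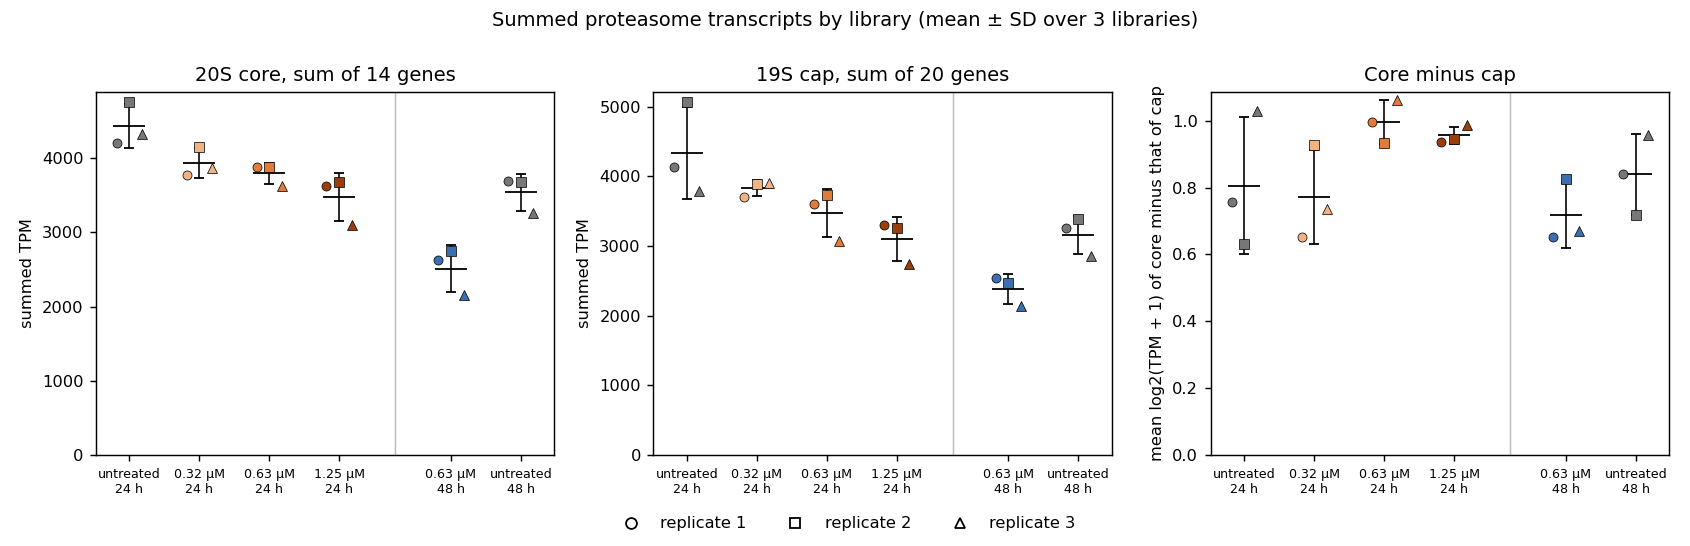
Summed TPM of the 14 core genes and of the 20 cap genes, and the mean log2(TPM + 1) of the core minus that of the cap, in each of the 18 libraries, with 24 h groups by dose on the left and 48 h groups on the right; bars are mean ± SD over 3 libraries. Both sums are lowest in the cells at 0.63 µM for 48 h, and the core minus cap values of treated and untreated libraries overlap at both times.

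The level of a member, measured in TPM, ranged over all libraries from a mean of 6.94 TPM for PSMD5 to 1122 TPM for PSMA7, an alpha subunit. PSMD11, a lid subunit that helps stabilise the assembled complex, followed at 569 TPM, then PSMD4, a ubiquitin receptor, at 466 TPM and the ATPase PSMC1 at 446 TPM. The lowest members after PSMD5 were PSMD10 (13.1 TPM) and PSMA5 (23.8 TPM). PSMD5, PSMD9 and PSMD10 are chaperones that help to assemble the base of the cap and are not part of the finished particle. The libraries count one end of each transcript while TPM divides by length, so the order of genes depends on that division, whereas the length of a gene is the same in every group.

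The core and the cap did not separate beyond the spread between libraries. The mean log2(TPM + 1) of the core exceeded that of the cap at 24 h by 0.81 ± 0.20 in untreated cells, 0.77 ± 0.14 at 0.32 µM, 1.00 ± 0.07 at 0.63 µM and 0.96 ± 0.03 at 1.25 µM (SD, n = 3 each). At 48 h it was 0.72 ± 0.10 at 0.63 µM, against 0.84 ± 0.12 in untreated cells. The change of this difference against untreated cells was therefore −0.03, 0.19 and 0.15 at 24 h and −0.12 at 48 h on the log2 scale. Without replicate 2 of the untreated cells the 24 h values became −0.12, 0.10 and 0.06. No p-value is given for a score over chosen members.

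Members were tested one by one with limma on log2(TPM + 1) in a fit over all 18 libraries, and a gene was called at a Benjamini-Hochberg adjusted p under 0.05 over all 14936 genes. At 1.25 µM for 24 h, 8 of 34 members were lower and 1 was higher, against 6.36% of all genes lower, 4.94% higher and 11.3% in either direction. The lower ones were PSMC1, PSMC6, PSMA4, PSMD2, PSMD3, PSMD1, PSMD7 and PSMA7, and the higher one was PSMD8. By part, 2 of 14 core genes were lower, and 6 of 20 cap genes were lower and 1 higher. In a fit of only the groups compared 0 members were called, with 0.556% of all genes lower. The median change of the 34 members was −0.28, with −0.27 in the core and −0.40 in the cap, against −0.01 for all genes. Treated libraries were all below the untreated ones in 13 members and all above in 3, against 13.7% and 12.4% of all genes.

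**Figure D2:**
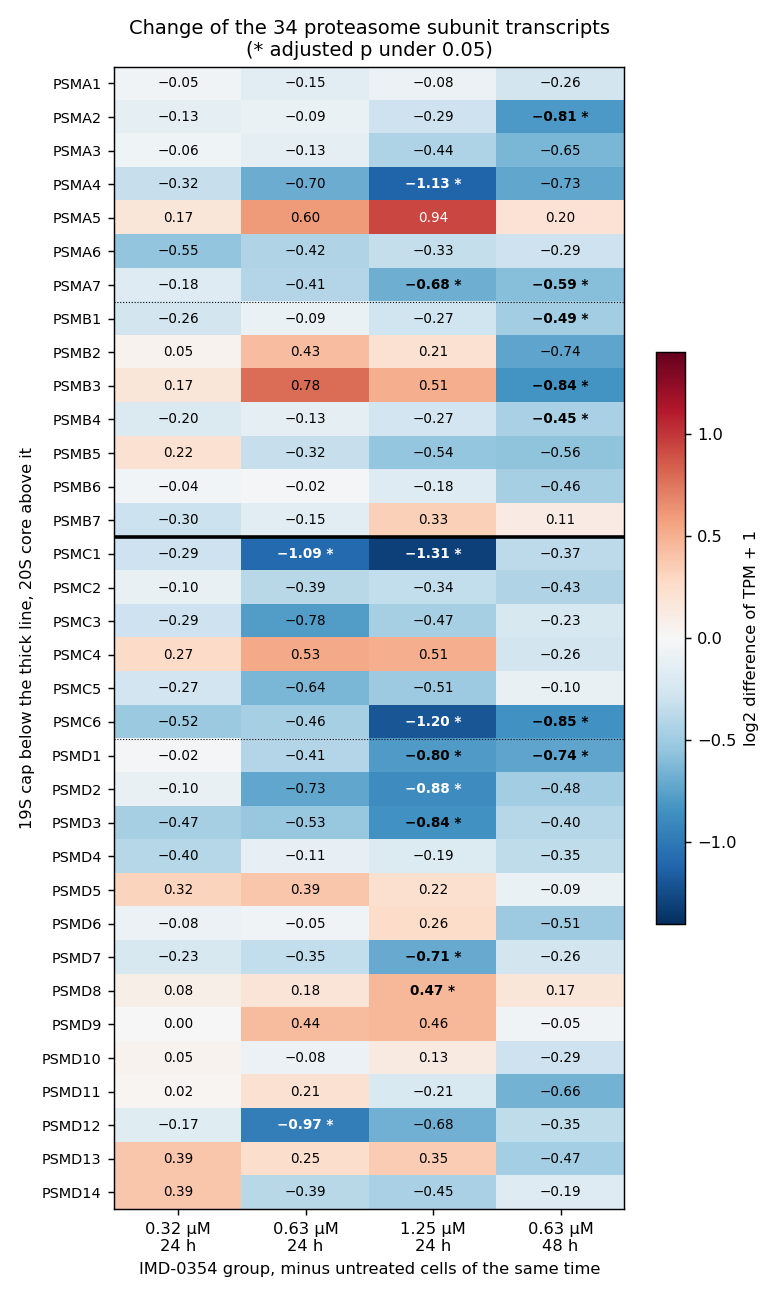
Log2 difference of TPM + 1 between each IMD-0354 group and untreated cells of the same time, for the 34 members (rows) and 4 comparisons (columns); asterisks mark an adjusted p under 0.05. PSMC1, PSMC6 and PSMA4 show the largest falls at 1.25 µM, and the beta subunits PSMB1, PSMB3 and PSMB4 pass the test at 48 h.

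In the ATPase ring, which unfolds the substrate, PSMC1 had 332, 280.4 and 233 TPM at 1.25 µM, against 573, 1225 and 469 TPM in untreated cells at 24 h. All treated libraries were below all untreated ones, but the untreated mean rested on the high replicate 2. The log2 change was −1.31 ± 0.26 (SE, limma adjusted p = 0.00413), a ratio of 0.405, and without that replicate it was −0.89 with an adjusted p of 0.00483. PSMC1 is also the member whose reads are least certain: it has 13 named processed pseudogenes, whose mean levels sum to 22.0% of its own. PSMC1P5 alone had 102.0, 83.3 and 58.9 TPM at 1.25 µM, against 73.5, 238 and 165 TPM in untreated cells at 24 h. Its untreated values are highest in the same replicate as those of PSMC1. No other member had pseudogenes named after it that summed to more than 5% of its level. Copies under other names were not searched.

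PSMC6, another ATPase of the ring, had 65.1, 54.2 and 43.4 TPM at 1.25 µM, against 123, 158 and 98.5 TPM in untreated cells at 24 h, and the groups did not overlap. Its log2 change was −1.20 ± 0.20 (adjusted p = 0.00146), a ratio of 0.436, and it stayed at −1.03 without replicate 2. The other 4 ATPases did not pass the test at 1.25 µM. PSMC2, PSMC3 and PSMC5 had log2 differences of −0.34, −0.47 and −0.51, and PSMC4 had 0.51. With untreated replicate 2 left out these were −0.23, −0.13, −0.34 and 0.18. PSMC2 shares its locus with DNAJC2 on the opposite strand, which averaged 108.5 TPM against 26.4 TPM for PSMC2. Outside the ring, PSMD5 shares its locus with CUTALP on the opposite strand, which averaged 9.80 TPM against 6.94 TPM for PSMD5. The labels do not say whether counting used the strand.

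In the alpha ring, which gates entry to the barrel, PSMA4 had 185, 172 and 164 TPM at 1.25 µM, against 319, 607 and 283 TPM in untreated cells at 24 h. The treated values lay in a narrow band below every untreated one. The log2 change was −1.13 ± 0.22 (adjusted p = 0.00355), and −0.79 without replicate 2 (adjusted p = 0.00410). PSMA7, the most abundant member, had 1038, 966 and 777 TPM at 1.25 µM, against 1438, 1651 and 1347 TPM in untreated cells at 24 h, and the groups did not overlap. Its log2 change was −0.68 ± 0.14 (adjusted p = 0.00566). PSMA5 had the largest positive value of all members, 37.4, 40.8 and 38.8 TPM at 1.25 µM, against 19.6, 13.4 and 29.3 TPM in untreated cells. These groups did not overlap either, but at these low levels the log2 difference of 0.94 had a 95% interval of 0.16 to 1.72 and missed the threshold (adjusted p = 0.114), and without replicate 2 of the untreated cells it was 0.68.

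Among the non-ATPase genes of the cap, PSMD2, a large base subunit that docks ubiquitin shuttle factors and is itself a ubiquitin receptor, had 109.8, 144 and 104 TPM at 1.25 µM, against 220.0, 259.7 and 180.1 TPM in untreated cells at 24 h. PSMD1, the other large base scaffold, had 332, 221 and 212 TPM, against 426, 469.7 and 409 TPM. PSMD3, a lid subunit, had 127, 159.7 and 119 TPM, against 224, 298 and 211 TPM. In each of these 3 genes every treated library was below every untreated one. The log2 changes were −0.88 ± 0.20 (adjusted p = 0.00910) for PSMD2, −0.80 ± 0.18 (adjusted p = 0.00840) for PSMD1 and −0.84 ± 0.19 (adjusted p = 0.00927) for PSMD3. All 3 calls held without replicate 2, at −0.75, −0.74 and −0.69.

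PSMD7, the lid subunit that pairs with the deubiquitinase PSMD14, had 116, 118 and 103 TPM at 1.25 µM, against 145, 293 and 147 TPM in untreated cells at 24 h. Its log2 change of −0.71 ± 0.20 (adjusted p = 0.0343) rested on replicate 2, without which it was −0.37 with an adjusted p of 0.0688. PSMD8, a lid subunit, was the one member called higher of 11 above 0, with 139, 135 and 119 TPM, against 102, 81.4 and 101 TPM in untreated cells. The groups did not overlap, and the log2 change was 0.47 ± 0.14 (adjusted p = 0.0443). Without replicate 2 the PSMD8 change was 0.36 with an adjusted p of 0.123, so the calls of PSMD7 and PSMD8 were both lost, as they were whichever single library at 1.25 µM was left out, and that of PSMD8 also without untreated replicate 1.

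**Figure D3:**
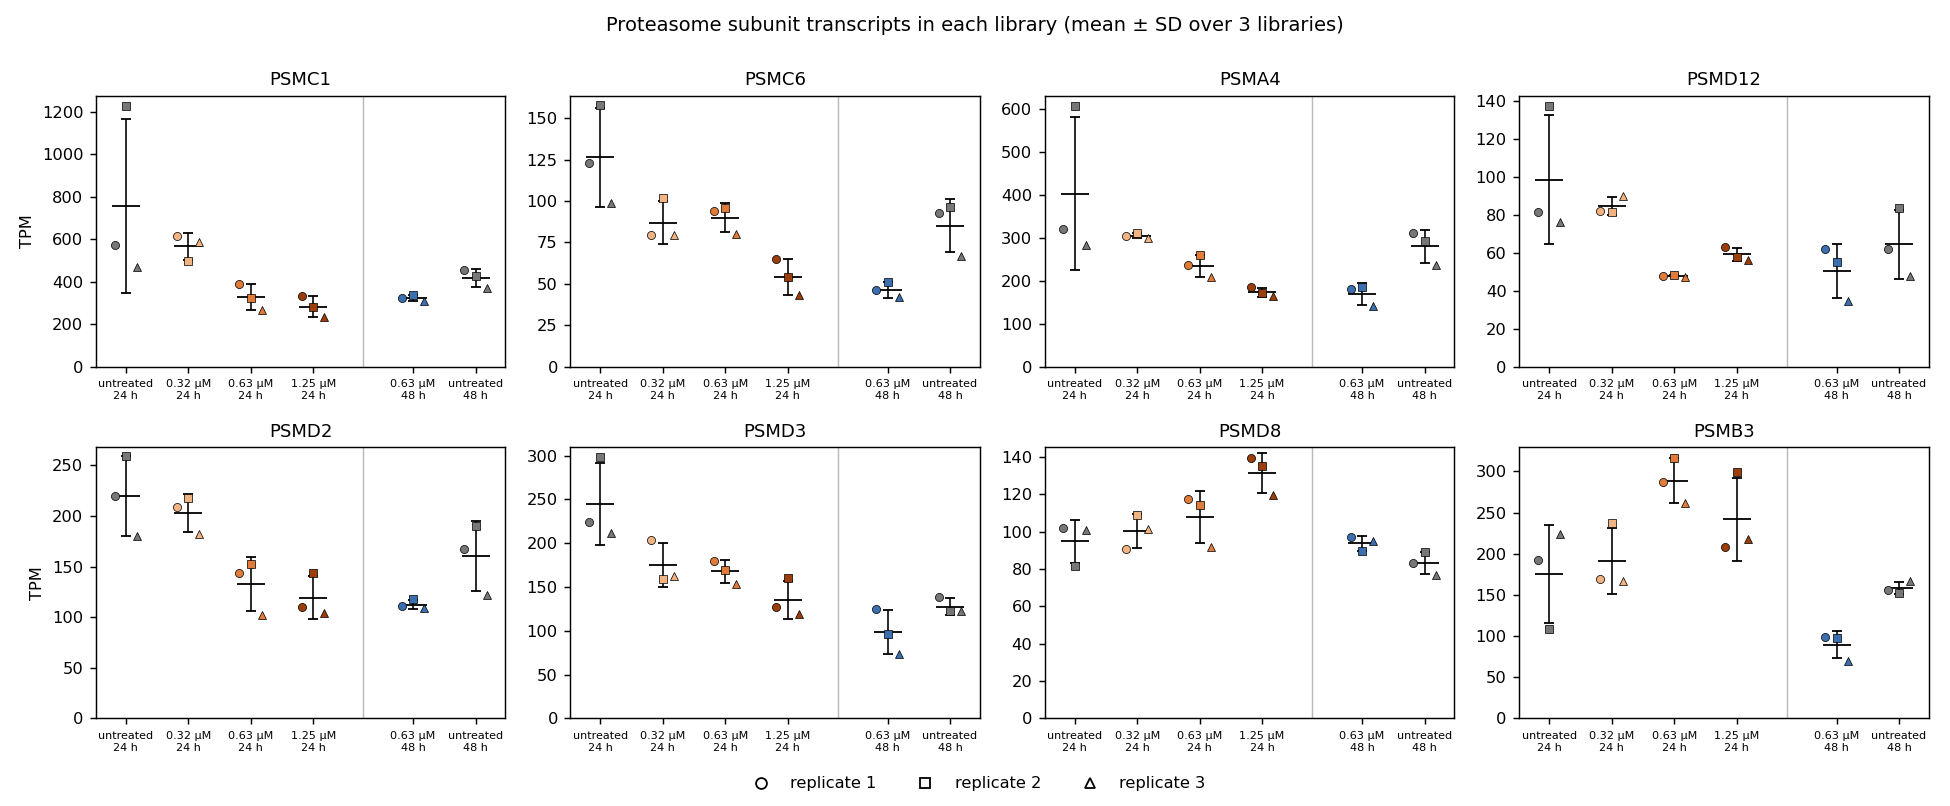
TPM in each of the 18 libraries for 8 members, with 24 h groups by dose on the left of each panel and 48 h groups on the right; bars are mean ± SD over 3 libraries and marker shapes are replicate numbers. Replicate 2 of the untreated cells at 24 h is the highest library for PSMC1, PSMC6, PSMA4, PSMD12, PSMD2 and PSMD3 and the lowest of its group for PSMB3 and PSMD8.

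None of the 3 catalytic subunits passed the test in any comparison with untreated cells, although PSMB7 did in some alternatives given below. PSMB5, which carries the chymotrypsin-like site, had 116, 148 and 103 TPM at 1.25 µM, against 209, 135 and 194 TPM in untreated cells at 24 h, and the groups overlapped. Its log2 difference was −0.54, with a 95% interval of −1.05 to −0.04 and an adjusted p of 0.163. At 48 h it had 93.3, 140.0 and 93.3 TPM at 0.63 µM, against 159.7, 203 and 122 TPM in untreated cells, again with overlap and a log2 difference of −0.56 (95% interval −1.07 to −0.06, adjusted p = 0.179).

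PSMB6, the caspase-like subunit, had 302, 258 and 185 TPM at 1.25 µM, against 291, 255 and 282 TPM in untreated cells at 24 h, and the groups overlapped. Its log2 difference there was −0.18 (95% interval −0.51 to 0.15). At 48 h PSMB6 had 192, 213 and 161 TPM, against 254, 261 and 259 TPM, without overlap, with a log2 difference of −0.46 (adjusted p = 0.0854). PSMB7, the trypsin-like subunit, had 404, 419 and 386 TPM at 1.25 µM, against 295, 418 and 264 TPM in untreated cells at 24 h. The untreated replicate 2 lay among the treated libraries, and the log2 difference was 0.33 (95% interval −0.01 to 0.68, adjusted p = 0.204). Without that library PSMB7 was called higher, at 0.53 (adjusted p = 0.0242), as it was with quantile normalization, at 0.48 (adjusted p = 0.0370). At 48 h PSMB7 had 262, 276 and 217 TPM at 0.63 µM, against 259.6, 217 and 219 TPM in untreated cells, with overlap.

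The ubiquitin receptor PSMD4 had 564, 511 and 408 TPM at 1.25 µM, against 509.8, 776 and 444 TPM in untreated cells at 24 h, and the groups overlapped. At 48 h it had 374.9, 308 and 346 TPM at 0.63 µM, against 452, 413 and 447 TPM in untreated cells, without overlap. Its log2 differences were −0.19 at 1.25 µM (95% interval −0.58 to 0.20) and −0.35 at 48 h (95% interval −0.74 to 0.03), and neither passed the test. PSMD14, the deubiquitinase of the lid, had 97.3, 93.2 and 74.5 TPM at 1.25 µM, against 168, 77.7 and 134 TPM in untreated cells, also with overlap. At 48 h it had 150.4, 126 and 105 TPM at 0.63 µM, against 167, 157 and 112 TPM in untreated cells, again with overlap. Its log2 differences were −0.45 (95% interval −1.02 to 0.12) at 1.25 µM and −0.19 (95% interval −0.75 to 0.38) at 48 h. All 4 of these intervals include 0. With untreated replicate 2 left out the 1.25 µM differences were 0.04 for PSMD4 (95% interval −0.28 to 0.36) and −0.76 for PSMD14 (95% interval −1.28 to −0.25, adjusted p = 0.0643).

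At 0.63 µM for 24 h, 2 of 34 members were lower and 0 higher, against 0.824% of all genes lower, 1.36% higher and 2.18% in either direction. PSMC1 had 390.5, 322 and 269.7 TPM, against 573, 1225 and 469 TPM in untreated cells, a log2 change of −1.09 ± 0.26 (adjusted p = 0.0412). PSMD12, a lid subunit, had 48.1, 48.4 and 47.6 TPM, against 81.9, 138 and 76.3 TPM in untreated cells, a log2 change of −0.97 ± 0.25 (adjusted p = 0.04998). In both genes the treated libraries were below all untreated ones, but neither call held without replicate 2 of the untreated cells, with log2 changes of −0.68 and −0.71 and adjusted p-values of 0.0779 and 0.171. Both were also lost whichever single library at 0.63 µM was left out, and that of PSMD12 without untreated replicate 1. An unadjusted p under 0.05 was reached by 13 members, against 17.9% of all genes, and by 8 members without replicate 2, against 13.9%. Treated libraries were all below the untreated ones in 10 members and all above in 2, against 9.26% and 10.0% of all genes, and the median change of members was −0.14, against 0.00 for all genes. In the cap it was −0.37, and −0.16 without replicate 2.

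The highest value at this dose belonged to PSMB3, a non-catalytic beta subunit, with 287, 317 and 262 TPM, against 192, 109 and 224 TPM in untreated cells at 24 h. All treated libraries were above all untreated ones, but the log2 difference of 0.78 did not pass the test (adjusted p = 0.0952). It was 0.47 without replicate 2 of the untreated cells (adjusted p = 0.295) and 0.99 without replicate 3 (adjusted p = 0.0413). At 1.25 µM PSMB3 had 208, 299.9 and 218 TPM, and the groups overlapped.

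At 0.32 µM for 24 h, 0 of 34 members passed the limma test, against 0.00670% of all genes higher, 0.0201% lower and 0.0268% in either direction, and 4 had an unadjusted p under 0.05, against 6.11% of all genes. Without replicate 2 of the untreated cells 1 member had one, against 5.57%. The lowest log2 difference was −0.55 for the alpha subunit PSMA6, with 157, 273 and 166 TPM, against 258, 288 and 303 TPM in untreated cells, and replicate 2 of the treated cells lay within the untreated range, so the groups overlapped. The highest values were 0.39 for the lid subunit PSMD13 and 0.39 for PSMD14, which were 0.12 and 0.07 without replicate 2 of the untreated cells. Treated libraries were all below the untreated ones in 3 members and all above in 0, against 4.59% and 4.08% of all genes.

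Across untreated cells and the 3 doses at 24 h, group means were lower at every step in 8 members, PSMA3, PSMA4, PSMA7, PSMC1, PSMD1, PSMD2, PSMD3 and PSMD7, and higher at every step in PSMA5 and PSMD8. Among all genes 9.11% were lower and 7.92% higher at every step. Without replicate 2 of the untreated cells 3 members were lower at every step, PSMA3, PSMA7 and PSMD3, against 8.79% of all genes, and 1 was higher, PSMD6, against 7.01%. The first step, between untreated cells and 0.32 µM, therefore rested on that library in PSMA4, PSMC1, PSMD1, PSMD2 and PSMD7. PSMA7, which kept its order, averaged 1479 ± 156 TPM in untreated cells, 1301 ± 65.3 TPM at 0.32 µM, 1107 ± 55.1 TPM at 0.63 µM and 927 ± 135 TPM at 1.25 µM (SD, n = 3 each). The 3 dose comparisons share the same untreated libraries, so their values are not independent of each other.

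Compared directly, 1.25 µM and 0.63 µM at 24 h differed past the test in 0 of 34 members, against 1.04% of all genes lower at 1.25 µM, 0.469% higher and 1.51% in either direction, and 3 members had an unadjusted p under 0.05, against 15.4% of all genes. The largest difference was in PSMC6, with 65.1, 54.2 and 43.4 TPM at 1.25 µM, against 94.0, 95.8 and 80.0 TPM at 0.63 µM. The groups did not overlap, and the log2 difference was −0.73 (adjusted p = 0.0872). PSMB7 stood at the other end, with 404, 419 and 386 TPM at 1.25 µM, against 287, 261 and 319.6 TPM at 0.63 µM, again without overlap (log2 difference 0.48, adjusted p = 0.149). The libraries at 1.25 µM were all above those at 0.63 µM in 4 members and all below in 5, against 8.94% and 11.1% of all genes.

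At 48 h, 7 of 34 members were lower at 0.63 µM and 0 were higher, against 5.68% of all genes lower, 1.95% higher and 7.63% in either direction. These were PSMC6, PSMB3, PSMA2, PSMD1, PSMA7, PSMB1 and PSMB4, which makes 5 of 14 core genes and 2 of 20 cap genes. The median change was −0.41 over the members, −0.52 in the core and −0.35 in the cap, against −0.15 over all genes at this time. Scaling each library by its median ratio removed that shift and left a member median of −0.21, with 27 of 34 members below 0 and 1 called, PSMC6, so the calls of the other 6 were lost under it, and quantile normalization gave the same count. Treated libraries were all below the untreated ones in 19 members and all above in 1, against 21.3% and 9.23% of all genes.

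PSMA2, an alpha subunit, had 74.9, 77.0 and 70.4 TPM at 0.63 µM for 48 h, against 124.9, 137 and 129.8 TPM in untreated cells at 48 h. The treated libraries spread over less than 7 TPM, all below the untreated ones, and the log2 change was −0.81 ± 0.17 (adjusted p = 0.00899). PSMA2 was the one member whose call held at 48 h with any single library left out, and with median-ratio scaling its change was −0.60 with an adjusted p of 0.0518. PSMC6 had 46.2, 51.4 and 41.9 TPM, against 92.6, 96.4 and 66.7 TPM in untreated cells, without overlap. Its log2 change was −0.85 ± 0.20 (adjusted p = 0.0171), and −0.64 with median-ratio scaling (adjusted p = 0.0476).

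Of the 7 beta subunits, 3 were called lower at this time, against 5.68% of all genes, and 6 had a log2 change below 0. The 3 called are non-catalytic, but the catalytic PSMB5 and PSMB6 had similar changes, −0.56 and −0.46, without a call. As above, the 3 calls depended on the scaling. PSMB4 had 256, 273 and 235 TPM at 0.63 µM for 48 h, against 354, 358 and 332 TPM in untreated cells, with a log2 change of −0.45 ± 0.11 (adjusted p = 0.0164). PSMB1 had 157, 158 and 126 TPM, against 219, 217 and 182 TPM, with a log2 change of −0.49 ± 0.14 (adjusted p = 0.0494). PSMB3 had 99.0, 98.2 and 70.2 TPM, against 156, 153 and 167 TPM, with a log2 change of −0.84 ± 0.24 (adjusted p = 0.0393). In all 3 the groups did not overlap. The call of PSMB3 was lost whichever single library of either group was left out, and that of PSMB1 whichever was left out except untreated replicate 3.

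PSMA7 had 841, 819.9 and 636 TPM at 0.63 µM for 48 h, against 1246, 1216 and 989.7 TPM in untreated cells, and PSMD1 had 229.9, 207 and 192 TPM, against 372, 402 and 285 TPM. Their log2 changes were −0.59 ± 0.14 (adjusted p = 0.0167) and −0.74 ± 0.18 (adjusted p = 0.0169), and neither group pair overlapped. Without replicate 1 or 2 of the untreated cells, or replicate 3 of the treated cells, 1 member was called at 48 h. The highest value at 48 h was that of PSMA5 (0.20, 95% interval −0.58 to 0.98). Of the members lower at 1.25 µM for 24 h (8) and at 0.63 µM for 48 h (7), PSMA7, PSMC6 and PSMD1 were in both lists, which is 37.5% of the first and 42.9% of the second.

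Whether the effect of 0.63 µM differed between times was tested as an interaction, the effect at 48 h minus that at 24 h. It passed in 0 of 34 members, against 0.0201% of all genes lower, 0.0134% higher and 0.0335% in either direction, and 6 members had an unadjusted p under 0.05, against 11.9% of all genes. Core genes had a median difference of −0.36 and cap genes of −0.12, against −0.17 over all genes. The largest was PSMB3, at −1.62 ± 0.33 (adjusted p = 0.0876), which was above untreated cells at 24 h and below them at 48 h. PSMB2, another beta subunit, came next at −1.17 (adjusted p = 0.273). Leaving out replicate 2 of the untreated cells at 24 h made these −1.31 and −0.90, and the medians −0.36 in the core and −0.25 in the cap.

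The untreated cells were also compared between times. Untreated cells at 48 h had a summed member level of 6711 ± 518 TPM, against 8763 ± 933 TPM in untreated cells at 24 h, with a median member change of −0.37, against −0.03 over all genes. No member passed the limma test (0 of 34, against 0.0134% of all genes), and 13 had an unadjusted p under 0.05, against 7.91% of all genes. With replicate 2 at 24 h left out, 5 had one, against 5.78%, and the median member change was −0.30. The 48 h libraries were all below the 24 h ones in 14 members and all above in 0, against 7.65% and 4.87% of all genes. The lowest value was that of PSMD3, with 138, 123 and 122 TPM at 48 h, against 224, 298 and 211 TPM at 24 h (log2 difference −0.92, adjusted p = 0.243).

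Several genes that control or work with the proteasome rose, and a few fell; their lists were called in 0 genes at 0.32 µM. Of 8 genes around NRF1, 3 were higher at 0.63 µM for 24 h, 4 at 1.25 µM for 24 h and 2 at 0.63 µM for 48 h, and 0 were lower in any of these, against 1.36%, 4.94% and 1.95% of all genes higher. NFE2L1, which encodes NRF1, had 44.7, 61.6 and 44.9 TPM at 1.25 µM, against 23.5, 28.2 and 33.5 TPM in untreated cells at 24 h. At 48 h it had 69.2, 55.8 and 48.5 TPM at 0.63 µM, against 27.0, 24.1 and 27.0 TPM in untreated cells. The groups did not overlap at either time, and the log2 changes were 0.80 ± 0.22 (adjusted p = 0.0293) and 1.11 ± 0.22 (adjusted p = 0.00611). The 24 h call was lost without replicate 2 of the untreated cells (adjusted p = 0.0583) at the same size of change, 0.81, and also without untreated replicate 1 or replicate 2 or 3 at 1.25 µM.

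All 3 small MAF genes rose at 0.63 and 1.25 µM for 24 h, and none was called at 0.32 µM. MAFF had 41.7, 41.6 and 46.6 TPM at 1.25 µM and 23.5, 29.3 and 28.7 TPM at 0.63 µM, against 14.1, 9.66 and 9.77 TPM in untreated cells at 24 h, with log2 changes of 1.88 ± 0.22 (adjusted p = 5.051e-05) and 1.22 ± 0.22 (adjusted p = 0.0109). At 48 h MAFF had 23.0, 22.7 and 26.9 TPM, against 8.14, 10.5 and 14.2 TPM in untreated cells, a log2 change of 1.10 (adjusted p = 0.00508). MAFG and MAFK had log2 changes of 1.20 and 1.21 at 1.25 µM and of 0.88 and 0.73 at 0.63 µM for 24 h, all past the test. Without replicate 2 of the untreated cells the calls of MAFG and MAFK at 0.63 µM were lost, with changes of 0.90 and 0.65 (adjusted p = 0.0601 and 0.0838), as they were without untreated replicate 1 or whichever single library at 0.63 µM was left out, and those at 1.25 µM held with any single library left out. The MAFF call at 0.63 µM was lost without replicate 3 at that dose. The related factor NFE2L2 had log2 differences of −0.35 at 1.25 µM and 0.25 at 48 h and passed in neither. It had 76.4, 62.5 and 52.5 TPM at 1.25 µM, against 80.4, 120.9 and 53.3 TPM in untreated cells at 24 h. The groups overlapped, and the high untreated value is that of replicate 2. NGLY1, the enzyme that removes sugars from NRF1, was above untreated cells at every dose at 24 h without overlap, with 34.7, 21.4 and 33.0 TPM at 1.25 µM, against 15.8, 10.1 and 17.5 TPM, but missed the threshold (log2 difference 0.99, adjusted p = 0.0534).

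**Figure D4:**
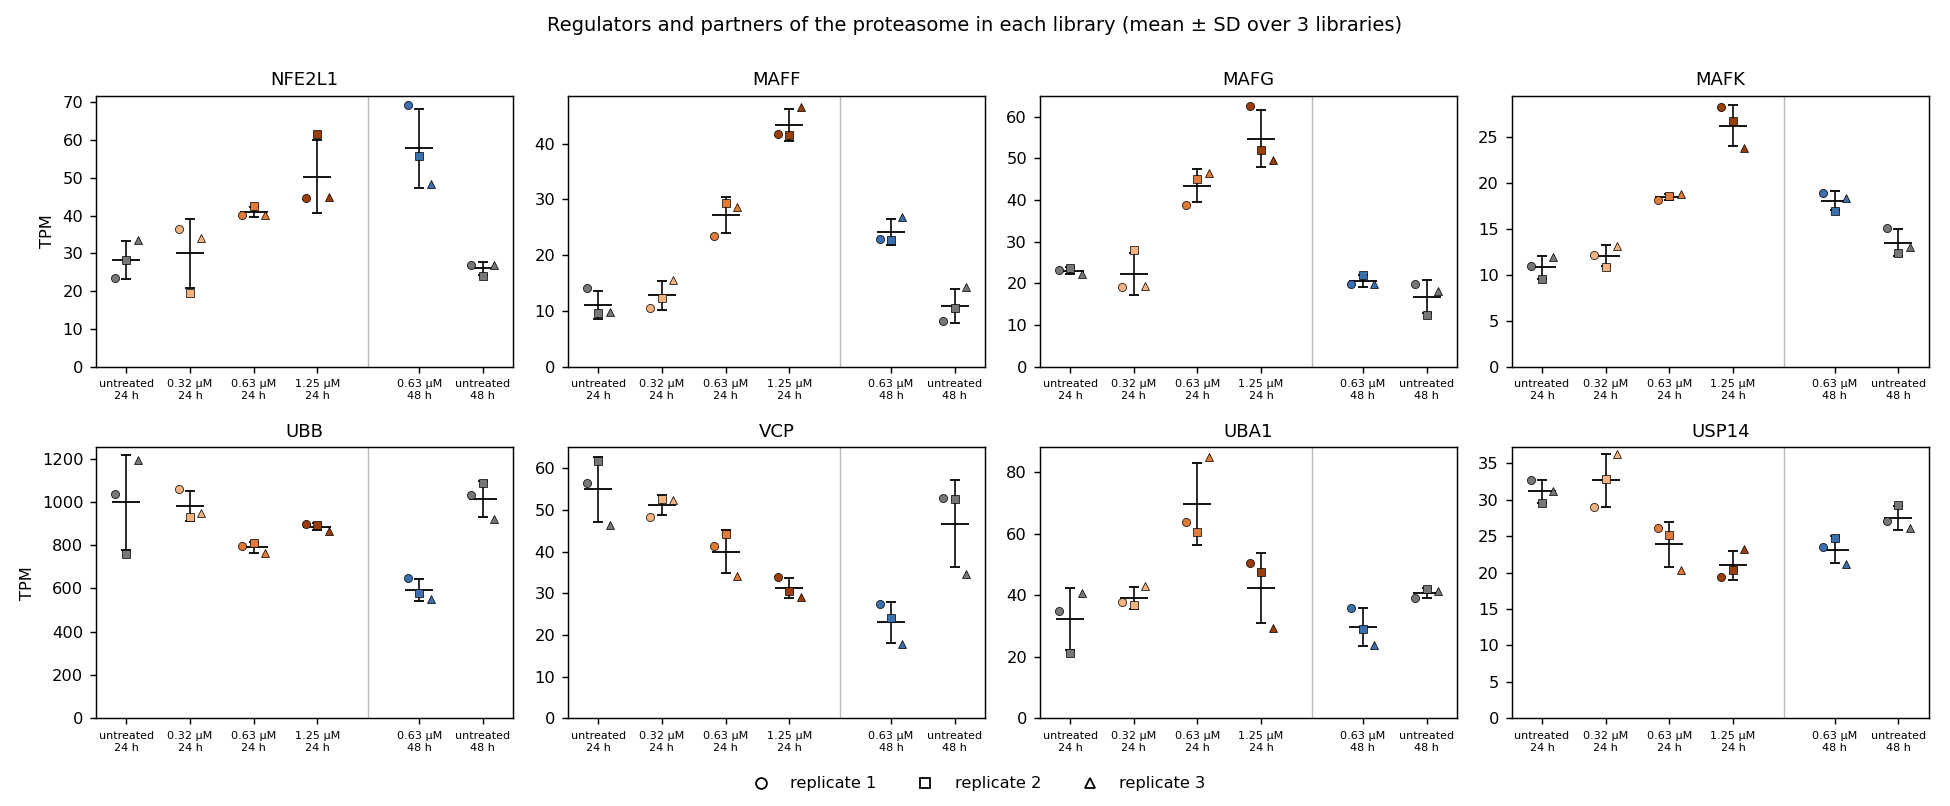
TPM in each of the 18 libraries for 8 genes that control or work with the proteasome, drawn as for the subunits, with mean ± SD over 3 libraries. MAFF, MAFG and MAFK are higher at 0.63 and 1.25 µM for 24 h than in untreated cells, UBB is lower at 48 h, and VCP is lower at 1.25 µM and at 48 h.

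UBB, a polyubiquitin gene, had 648, 580.1 and 551 TPM at 0.63 µM for 48 h, against 1029.7, 1086 and 921 TPM in untreated cells at 48 h. The groups did not overlap, and the log2 change was −0.77 ± 0.14 (adjusted p = 0.00281). VCP is the segregase that pulls ubiquitinated proteins out of complexes. Among 6 genes, ubiquitin E1 enzymes and VCP with cofactors, it was the 1 called lower at 1.25 µM and at 48 h. Of all genes 6.36% and 5.68% were lower. It had 33.9, 30.5 and 29.2 TPM at 1.25 µM, against 56.6, 61.9 and 46.4 TPM in untreated cells at 24 h (−0.79 ± 0.20, adjusted p = 0.0176), and without replicate 2 of the untreated cells the change was −0.70 with an adjusted p of 0.0553. The 24 h call was also lost without replicate 2 or 3 at 1.25 µM. At 48 h it had 27.5, 24.1 and 17.7 TPM, against 52.9, 52.7 and 34.7 TPM (−0.98 ± 0.20, adjusted p = 0.00622). UBA1, the main ubiquitin-activating enzyme, was called higher at 0.63 µM for 24 h (1.12, adjusted p = 0.0309), not at 1.25 µM (0.40). The call was lost without replicate 2 of the untreated cells (0.85, adjusted p = 0.0982) or whichever single library at 0.63 µM was left out. At 48 h UBA1 went the other way without a call, averaging 29.6 TPM at 0.63 µM, against 40.8 TPM in untreated cells. Every treated library there was below every untreated one. The UBA1 effect at 48 h minus that at 24 h was −1.59, which did not pass the test.

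The remaining lists hold helpers and variants of the complex. Of 6 assembly chaperones of the core and cap outside the 34, 0 passed the limma test at any dose or time, with 0 of 6 at an unadjusted p under 0.05 at 1.25 µM and 3 of 6 at 48 h, against 25.7% and 21.2% of all genes. POMP, which completes the core, had 265, 288 and 242 TPM at 1.25 µM, against 281, 320.5 and 286 TPM in untreated cells at 24 h (log2 difference −0.16). Of 7 other cap parts and bound enzymes, 1 was lower at 1.25 µM, the deubiquitinase USP14 (−0.55, adjusted p = 0.0323), against 6.36% of all genes. That call was lost without replicate 1 or 3 of the untreated cells or replicate 1 or 2 of the treated cells. Of 5 activators and inhibitors, 1 was lower at 48 h, the nuclear activator PSME3 (−0.68, adjusted p = 0.0387), against 5.68% of all genes. That call was lost with median-ratio scaling (−0.48, adjusted p = 0.104) or quantile normalization (−0.50, adjusted p = 0.0938), and without replicate 1 or 2 of the untreated or replicate 3 of the treated cells. Of 5 immunoproteasome and tissue-specific subunits, PSMA8 and PSMB11 were below the filter. PSMB9, which replaces PSMB6 in the immunoproteasome, was lower at 1.25 µM, with 14.9, 20.8 and 6.38 TPM, against 22.0, 28.6 and 31.1 TPM in untreated cells at 24 h (−1.03, adjusted p = 0.0344), a call lost without replicate 2 or 3 of the untreated cells or replicate 3 of the treated cells. Without untreated replicate 2 the change was −0.99, about as large, with an adjusted p of 0.0814.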

How the data were processed

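A375 cells were profiled by 3′ mRNA sequencing (QuantSeq FWD), per the labels' protocols. The authors deposited 1 table of TPM values for 60504 genes in 18 libraries; the tools listed, per the submitters' processing notes, are STAR 2.7, RSEM 1.3.1, cutadapt 1.18 and DESeq2, whose roles are not given. The genome build is not given in the sources used here. TPM sums to the same total in each library, so sequencing depth is unknown and no counting interval is given.

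The 14936 genes that reached 1 TPM in 3 or more libraries were tested on log2(TPM + 1), so fold changes are on that scale and understate those of low genes. limma 3.58.1 in R 4.3.3 fitted group means over all 18 libraries, with 12 residual degrees of freedom and a mean-variance trend, for 7 comparisons. Two-sided p-values were adjusted by Benjamini-Hochberg over all genes tested, and errors of changes are standard errors. The fit was tested on simulated data. An exact permutation test of 3 against 3 libraries cannot go below p = 0.1, so none is given.

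All 34 members could be named. Per-library values were set for up to 6 called members in each direction with the largest change, for the catalytic, receptor and deubiquitinase genes and for the extremes of each comparison; those of PSMA7, PSMD1, PSMD7, PSMA2, PSMB1 and PSMB4, called members beyond that number, were added. Pathway genes came from 8 lists, naming called genes or the largest changes (some of these genes are not reported here), and marker lists covered melanocyte, keratinocyte, fibroblast, leukocyte, endothelial and epithelial cells. The members, lists and tests were chosen with earlier results of these data known. Pseudogenes and overlapping genes came from GENCODE 29, and promoter windows from RefSeq.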

Additional observations from a re-analysis of the deposited data

Results flagged for a closer look

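The effect of 0.63 µM IMD-0354 on PSMB3, a non-catalytic beta subunit, differed in direction between times, with a difference of effects of −1.62 on the log2 scale (48 h minus 24 h). Every treated library was above every untreated one at 24 h (287, 317 and 262 TPM, against 192, 109 and 224 TPM) and below every untreated one at 48 h (99.0, 98.2 and 70.2 TPM, against 156, 153 and 167 TPM). The interaction itself did not pass the limma test (adjusted p = 0.0876). Without replicate 2 of the untreated cells at 24 h the difference was −1.31 (adjusted p = 0.0858), and without replicate 3 it was −1.83 (adjusted p = 0.0414).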

How the results depend on the processing

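No call of a named gene changed direction under any alternative, and 8 of 18 calls of members held with each single library left out. Members called at 0.63 µM for 24 h (2) became 1 with a pseudocount of 0.1 TPM, a robust prior or library weights, 0 without a filter, without a mean-variance trend, with only the compared groups or without untreated replicates 2 and 3, and 4 with a replicate block; leaving out 1 library gave 0 to 5. At 1.25 µM (9) they became 0 with only the compared groups, where 0.556% of all genes were lower, against 6.36% in the main fit. Leaving out 1 library gave 7 to 9. Without untreated replicates 2 and 3 the median member change was −0.19, against −0.28. At 48 h (7) the members called became 6 with only the compared groups, where 5.22% of all genes were lower, against 5.68%. They became 1 with median-ratio scaling or quantile normalization, 3 without a mean-variance trend and 11 with library weights. Leaving out 1 library there gave 1 to 6. These scalings move the median of all genes from −0.15 to 0.00 and the share of higher among all calls at 48 h from 25.5% to 49.2% and 47.5%. Between 1.25 and 0.63 µM (0) quantile normalization, a replicate block and library weights each gave 1. The interaction (0) gave 1 with library weights and 0 to 1 with 1 library left out. Other causes were not tested. The replicate numbers share no stated batch: deviations of same-numbered libraries correlated at −0.09 to 0.08 in 12 pairs, so the replicate block is an alternative. The change of core minus cap ranged over the alternatives from −0.12 to 0.08 at 0.32 µM, 0.10 to 0.30 at 0.63 µM and 0.06 to 0.26 at 1.25 µM for 24 h, and from −0.18 to −0.06 at 48 h. Depth is unknown and 3 libraries per group limit the precision. Members under about 25 TPM, PSMA5, PSMD5 and PSMD10, had standard errors of 0.37, 0.28 and 0.25. An error within this range was also given above for PSMC1, an abundant member.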
